A study of Mus musculus with 9 samples.

Results

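RAW 264.7 cells, a mouse macrophage line, were compared after LPS with and without calycosin beforehand, across every gene with enough counts to be tested. It rests on 6 of the 9 libraries of the study, chosen by their treatment labels, and on 14458 of the 51826 genes counted. The 3 libraries of the LPS group came from cells given lipopolysaccharide at 300 ng/mL for 6 h. The 3 libraries of the calycosin plus LPS group came from cells that first received calycosin at 100 ug/mL for 24 h and then the same LPS exposure. The other 3 libraries, from vehicle-treated cells, entered the fit for the spread between replicates and are quoted as the resting level. RAW 264.7 is a single transformed line that was derived with Abelson leukaemia virus, and the labels call the 3 samples of a group biological replicates. No library with calycosin and without LPS was analysed here, so a change that calycosin makes in any cell and a change in the response to LPS cannot be told apart. In bulk RNA, fewer cells that express a gene and less of its RNA per cell cannot be told apart either.

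Lipopolysaccharide, from the outer membrane of Gram-negative bacteria, is bound by CD14 and MD-2 and signals through the receptor TLR4. The adaptors MyD88 and TRIF then activate NF-kappaB, MAP kinases and interferon regulatory factors, which switch on cytokine, chemokine and interferon-beta genes, and secreted interferon-beta acts back on the cells through JAK-STAT signalling. In macrophages the same stimulus can also halt the cell cycle and alter lipid metabolism. Calycosin is an O-methylated isoflavone of Astragalus root, studied as an anti-inflammatory compound and as a weak ligand of estrogen receptors. The series' title places the work in macrophage chemotaxis mediated by MIF, the macrophage migration inhibitory factor.

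Total counts were 27784737 to 31038241 in the LPS libraries and 33925342 to 38524105 in the calycosin plus LPS libraries. Mitochondrially encoded genes took 13% to 14.7% of counts in the LPS libraries and 7.45% in calycosin plus LPS replicate 2. Calycosin plus LPS replicates 1 and 3 had 17.2% and 19.4%, and vehicle replicates 1, 2 and 3 had 3.79%, 3.68% and 21.9%. A count of 3, taken as the floor, was 0.0704 to 0.137 CPM in the 6 libraries with LPS. CPM are counts scaled to the effective library size, given for each library in the order of the replicate numbers or as mean ± SD (n = 3). The first principal component of the 6 libraries carried 56.2% of the variance and separated the groups. The macrophage genes Spi1, Csf1r, Adgre1, Cd68, Fcgr1 and Laptm5 were present in all 6 libraries and not called, while Ptprc, Lyz2 and Mpeg1 were called lower. Of 30 markers of other cell types, 13 had no counts in the 6 libraries and 5 had enough to be tested. Their summed level was 41.6 to 48.9 CPM with LPS and 28.5 to 34.5 CPM with calycosin plus LPS, most of it from Vwf (36.9 ± 1.77 and 27.9 ± 3.84 CPM). Their part in the results was not tested, and the B cell gene Ms4a1, the NK gene Ncr1 and all 5 epithelial genes were at 0 counts.

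Calycosin before LPS left most of the transcriptome unmoved by the test and shifted a broad minority in both directions. With edgeR's quasi-likelihood test and a Benjamini-Hochberg adjusted p below 0.05, 2333 genes (16.1% of those tested) were higher and 1871 (12.9%) lower. Changes of at least 2-fold made up 1020 (7.05%) and 639 (4.42%) of the tested genes, those of at least 4-fold 241 and 176, and those of at least 8-fold 77 and 50. The median fold of the called genes was 1.88 for those higher and 1.73 for those lower. Another 10254 genes (70.9%) did not pass, which does not show that they were equal. In 7190 of the genes tested (49.7%), called or not, the LPS and calycosin plus LPS libraries did not overlap. The counts depended on the vehicle libraries in the fit. Without vehicle replicate 3, 3164 genes were called higher and 2576 lower, and with the 6 libraries only 2743 and 2391. The split between directions depended on how libraries were scaled. With the TMM scaling used here 55.5% of called genes were higher and the median log2 fold change of all genes was 0.02. When libraries were scaled by total counts, an alternative added after seeing the data, the median moved to 0.33 and 82.8% of called genes were higher (3418 higher, 710 lower). In limma fits on log2(TPM + 1) these values were 0.30 and 82.5% (1345 higher, 286 lower). In each of 21 alternatives no gene called here was called in the other direction. In every alternative that tested them, 505 higher and 218 lower genes passed. Some filters left genes out, so here and below "every alternative" means each one that tested the gene. Falls of about 2-fold or less were those most often lost under total counts or TPM, and such losses are stated where they touch a named group.

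**Figure D1:**
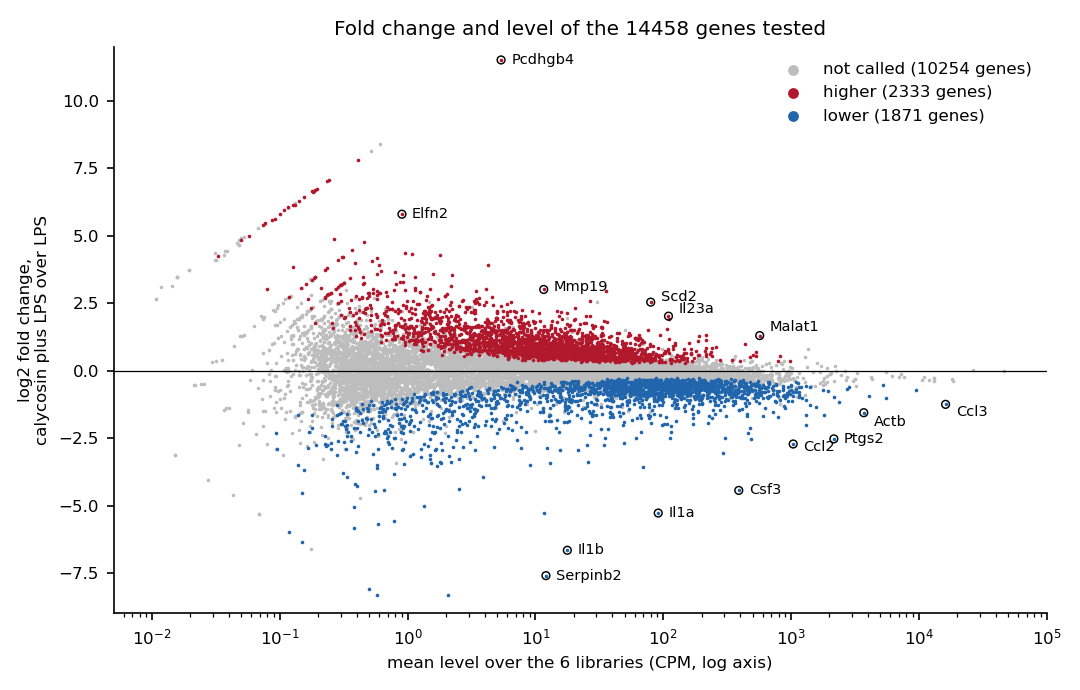
Each point is 1 of the 14458 genes tested, with the mean level over the 6 libraries on a log axis (CPM) against its log2 fold change (LPS with calycosin over LPS without). Red points are the 2333 genes called higher and blue points the 1871 called lower. Il1b, Il1a, Serpinb2 and Csf3 lie lowest among the named genes, and the slanted rows of points at the left are genes without counts in 1 group, whose fitted fold change is not a measured size.

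With TMM scaling the 2 directions differed in level. The shares and medians by level below are from that fit alone and were not computed under other scalings. Under total-count scaling the median log2 fold change of all genes was 0.33, and 710 genes in all were called lower. When genes were ranked by mean level into 5 groups of equal size, those of the highest group (67.9 CPM and above) were called lower in 29.2% and higher in 5.43%, with a median log2 fold change of -0.26. In the groups from 1.34 to 9.66 CPM and from 9.66 to 27.4 CPM, 25.9% and 27.1% were called higher and 9.48% and 6.74% lower. Protein-coding genes called at least 2-fold lower had a median of 26.0 CPM with LPS and 9.97 CPM with calycosin plus LPS, against 6.02 CPM in vehicle cells. Those at least 2-fold higher had medians of 2.50 and 7.07 CPM, against 8.02 CPM in vehicle cells. Among noncoding classes, 43 of 394 lincRNAs (10.9%) were higher and 37 (9.39%) lower, against 16.1% and 12.9% of all genes tested. Of 453 antisense RNAs 27 (5.96%) were higher and 47 (10.4%) lower, and of 358 unclassified TEC transcripts 15 (4.19%) and 35 (9.78%). For 52 bidirectional-promoter RNAs the counts were 14 (26.9%) and 1 (1.92%), and for 773 processed pseudogenes 16 (2.07%) and 89 (11.5%).

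The steepest falls among well-expressed genes included cytokines of the interleukin 1 family, which start local inflammation and fever. They were led by Il1b and Il1a, which sit beside each other on chromosome 2, and by Serpinb2, an inhibitor of plasminogen activators. The promoter windows of Il1b, Il1a and Serpinb2 are shown because these 3 genes had the largest falls among genes above 10 CPM. Windows are from RefSeq (GRCm38.p6) and run from 250 bases before to 50 bases after the annotated start. Capitals mark TATAAA, the TATA box that places the transcription machinery, and TGANTCA, the AP-1 site bound by FOS and JUN proteins, on either strand.
Il1b, chr2:129371090-129371389, minus strand: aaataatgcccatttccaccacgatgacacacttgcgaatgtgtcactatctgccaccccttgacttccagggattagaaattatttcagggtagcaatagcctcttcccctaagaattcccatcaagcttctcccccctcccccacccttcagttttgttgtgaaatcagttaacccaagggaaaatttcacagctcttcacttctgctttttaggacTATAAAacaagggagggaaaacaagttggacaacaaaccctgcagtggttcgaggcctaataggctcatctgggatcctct
Il1a, chr2:129309923-129310222, minus strand: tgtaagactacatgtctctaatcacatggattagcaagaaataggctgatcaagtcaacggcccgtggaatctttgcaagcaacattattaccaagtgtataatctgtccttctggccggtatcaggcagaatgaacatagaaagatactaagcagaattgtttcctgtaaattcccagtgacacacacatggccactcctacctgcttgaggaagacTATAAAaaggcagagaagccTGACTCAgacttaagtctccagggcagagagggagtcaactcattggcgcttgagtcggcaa
Serpinb2, chr1:107511173-107511472, plus strand: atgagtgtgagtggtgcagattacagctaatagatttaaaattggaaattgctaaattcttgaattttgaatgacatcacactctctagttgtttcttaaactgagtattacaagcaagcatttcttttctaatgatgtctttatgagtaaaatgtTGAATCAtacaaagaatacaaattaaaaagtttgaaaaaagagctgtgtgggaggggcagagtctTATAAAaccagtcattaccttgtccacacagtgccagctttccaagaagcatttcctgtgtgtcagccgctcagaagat
Counted with 1 as the first transcribed base and -1 just before it, the TATA box begins at -31 in Il1b, at -32 in Il1a and at -29 in Serpinb2. An AP-1 site begins at -12 in Il1a and at -94 in Serpinb2. Serpinb2 has a second annotated start, whose window is not shown. Counted from that start, the same TATA box begins at -116 and the AP-1 site at -181. Among the 9897 tested genes with a window, TATAAA was found in 8.76% of all, in 16.8% of those at least 2-fold lower, in 26.5% of those at least 4-fold lower and in 7.57% of those at least 2-fold higher. For TGANTCA the shares were 6.38%, 10.8%, 13.3% and 7.45%, and of all 32851 windows 13.6% held TATAAA and 7.81% TGANTCA. The NF-kappaB consensus stood at 12.1%, 13.5%, 9.18% and 12.8%. These shares describe letters in a window and were not tested.

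Il1b (ENSMUSG00000027398, chr2:129364570-129371139) had 31.9, 35.0 and 38.8 CPM with LPS and 0.251, 0.493 and 0.259 CPM with calycosin plus LPS. Every calycosin library was below 1 CPM and the groups did not overlap. The log2 fold change was -6.66 (SE 0.27, edgeR adjusted p = 2.62e-05). Il1a (ENSMUSG00000027399, chr2:129299610-129309972) fell from 178, 192 and 166 CPM to 4.17, 4.25 and 5.38 CPM, a log2 fold change of -5.28 (SE 0.33, edgeR adjusted p = 2.65e-05). The antagonist of the same receptor fell too. Il1rn had 828, 805 and 837 CPM with LPS and 130, 131 and 163 CPM with calycosin plus LPS, a 5.82-fold difference. The interleukin 36 genes moved the same way, with Il1f9 falling 4.89-fold and Il1f6 going from 1.00 ± 0.220 CPM to no counts. With the calycosin level set at a floor of 3 counts per library, the fall of Il1f6 was at least 11.5-fold. Of 8 members of the interleukin 1 family tested, 5 were lower and none higher, all 5 under every alternative, with a median log2 fold change of -2.41. Il18, its partner in inflammasome output, had 102 ± 12.6 and 71.4 ± 8.36 CPM (edgeR adjusted p = 0.0556).

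Colony stimulating factors, the growth factors of granulocytes and macrophages, went both ways, with 2 of 5 lower and 2 higher, also under total-count scaling. Csf3, which drives neutrophil production, had 773, 697 and 768 CPM with LPS and 24.8, 47.7 and 30.4 CPM with calycosin plus LPS. Each calycosin library lay far below the lowest LPS library, and the log2 fold change was -4.44 (SE 0.31, edgeR adjusted p = 4.95e-05). Csf2 fell 10.7-fold, from 23.6 ± 5.52 to 2.22 ± 0.428 CPM. Csf1, the survival factor of macrophages themselves, rose 1.41-fold, from 393 ± 9.95 to 555 ± 29.7 CPM. Lif, a cytokine of the interleukin 6 family, had 608, 531 and 429 CPM and then 53.4, 56.3 and 77.0 CPM, and fell 8.40-fold. Its relative Osm fell 3.53-fold, and Ebi3, a subunit of interleukins 27 and 35, fell 2.86-fold.

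Il6 itself was lower too. It had 326, 364 and 376 CPM with LPS and 131, 146 and 169 CPM with calycosin plus LPS, a log2 fold change of -1.26 (SE 0.13, edgeR adjusted p = 0.000607). Il27, the partner of Ebi3, fell from 278 ± 13.4 to 176 ± 24.6 CPM (edgeR adjusted p = 0.0223), a call lost in 9 of the 21 alternatives. Il23a, the specific subunit of interleukin 23 that sustains interleukin 17 responses, went the other way. It rose from 35.6, 43.7 and 51.5 CPM to 164, 194 and 171 CPM, a log2 fold change of 2.02 (SE 0.14, edgeR adjusted p = 5.19e-05). Of 7 genes of the interleukin 6, 12 and 10 families tested, Il23a was thus the only one called higher and the other 6 were called lower. Under total-count scaling 5 of these 6 were still called, and 3 passed in every alternative.

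Tnf, the central early cytokine of macrophages, had 2961, 2847 and 2907 CPM with LPS and 1203, 1821 and 1387 CPM with calycosin plus LPS. The groups did not overlap and the log2 fold change was -0.98 (SE 0.19, edgeR adjusted p = 0.00434), but the call was lost under total counts and in the 3 TPM fits. Tnfsf9, which encodes the ligand of the T cell receptor 4-1BB, rose from 120, 126 and 126 CPM to 319, 306 and 310 CPM (2.51-fold, edgeR adjusted p = 0.000425). It was the only one of 11 TNF superfamily ligands called higher, and Tnf the only one called lower. That is 9.09% in each direction, below the 16.1% higher and 12.9% lower of all genes tested.

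Most CC chemokines tested, which attract monocytes and lymphocytes, were lower. Ccl2 (ENSMUSG00000035385, chr11:82035571-82037453), the main monocyte attractant, had 2013, 2055 and 1348 CPM with LPS and 238, 263 and 323 CPM with calycosin plus LPS. Its highest calycosin library was below its lowest LPS library, and the log2 fold change was -2.72 (SE 0.22, edgeR adjusted p = 8.44e-05). Its neighbours on chromosome 11 fell as well. Ccl7 had 122, 116 and 148 CPM and then 9.05, 11.5 and 12 CPM, and Ccl12 fell from 7.26 ± 0.834 to 0.469 ± 0.137 CPM. Ccl9 fell 3.32-fold, and Ccl5, which attracts T cells, fell 4.09-fold from 2104 ± 284 to 514 ± 81.3 CPM. Ccl3 and Ccl4, which attract monocytes and T cells, had 22820 ± 991 and 1151 ± 109 CPM with LPS and 9573 ± 1143 and 612 ± 161 CPM with calycosin plus LPS. Both were called lower (edgeR adjusted p = 0.0198 and 0.0288), and both calls were lost in several alternatives, 6 for Ccl3 and 9 for Ccl4. Ccl22, a ligand of the receptor CCR4 on regulatory T cells, was the 1 CC chemokine called higher, from 15.5, 17.1 and 15.6 CPM to 47.3, 49.9 and 52.3 CPM (edgeR adjusted p = 0.00127). Of 11 CC chemokines tested 9 were lower, 7 of them under total-count scaling and 4 in every alternative.

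Of 7 CXC and CX3C chemokines tested 1 was lower and 1 higher (14.3% each), near the 12.9% and 16.1% of all genes tested. Under total-count scaling none was lower and 1 higher. Cxcl2, a neutrophil attractant, had 3374 ± 94.7 and 2088 ± 533 CPM and was called lower (edgeR adjusted p = 0.0244), a call lost in 9 alternatives. Cxcl11, an interferon-induced ligand of CXCR3, had 120 ± 17.2 and 255 ± 124 CPM and was called higher (edgeR adjusted p = 0.0298), a call lost in 7 alternatives. Cxcl3, Cxcl9, Cxcl10 and Cxcl16 did not pass.

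**Figure D2:**
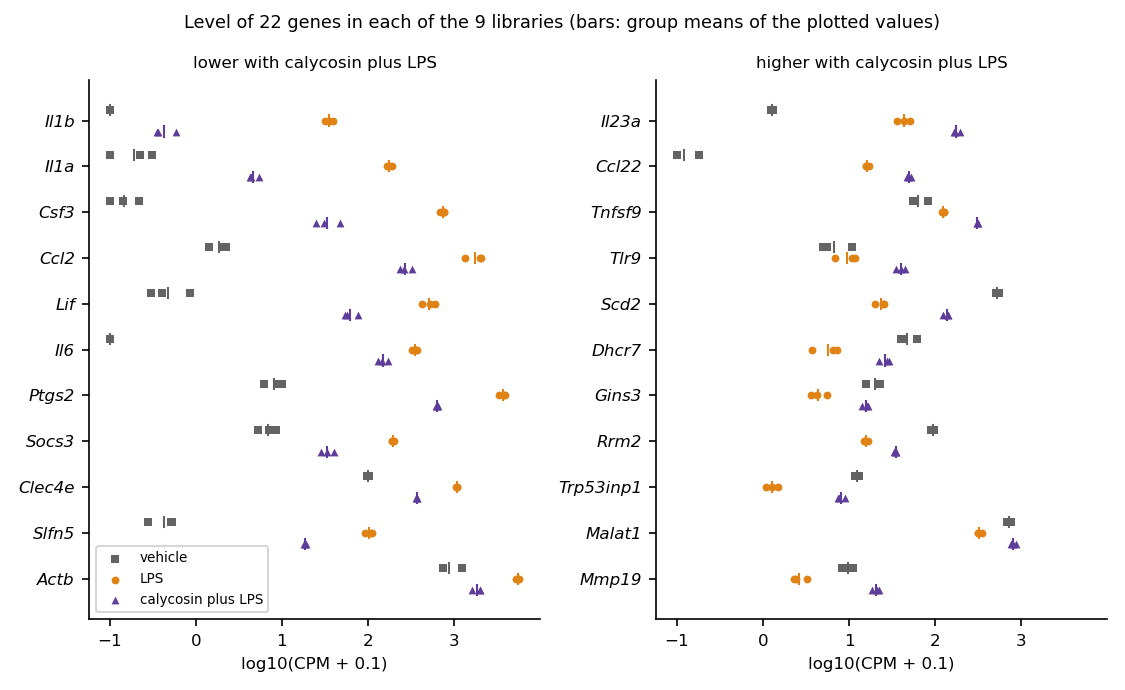
Levels of 22 genes in each of the 9 libraries, as log10(CPM + 0.1), with squares for vehicle, circles for LPS, triangles for calycosin plus LPS and bars at the means of the plotted values. For each gene the 3 triangles lie apart from the 3 circles, as for Il1b with 31.9 to 38.8 CPM against 0.251 to 0.493 CPM and Scd2 with 20.1 to 25.1 CPM against 125 to 142 CPM.

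Vasoactive and tissue-remodelling products moved in both directions. Edn1, the precursor of the vasoconstrictor endothelin 1, fell from 23.1, 24.5 and 21.2 CPM to 0.564, 0.469 and 0.777 CPM, a log2 fold change of -5.26 (SE 0.23, edgeR adjusted p = 2.65e-05). Pdgfb and Vegfc, growth factors of vessels and lymphatics, fell 3.09-fold and 3.12-fold, and Tgfb1 fell 2.16-fold from 1291 ± 97.0 to 598 ± 25.0 CPM. Pdgfa, the other chain of platelet-derived growth factor, rose 2.24-fold. Serpinb2 had 23.3, 25.7 and 23.3 CPM with LPS and 0.0940, 0.235 and 0 CPM with calycosin plus LPS. Its log2 fold change was -7.60 (SE 0.51, edgeR adjusted p = 0.000113), and since 2 calycosin libraries stand near the floor its size moved by more than 1.5 times without calycosin plus LPS replicate 2. Serpina3f fell 7.66-fold, the urokinase gene Plau 1.97-fold and its receptor gene Plaur 2.71-fold. Of 17 genes of the plasminogen system and serpins, 8 were lower and 1 higher, and under total-count scaling 6 and 2. The 1 called higher was Plat, tissue plasminogen activator, with 0.0277 ± 0.0480 CPM under LPS, below the floor, and 0.438 ± 0.0717 CPM after calycosin.

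Matrix proteases split within 1 gene family. Mmp9, gelatinase B, fell from 94.8, 76.0 and 65.1 CPM to 21.2, 20.9 and 20.8 CPM, and Mmp13, collagenase 3, from 1.15 ± 0.0757 CPM to 0.0156 ± 0.0271 CPM, below the floor. Mmp19, which cuts basement membrane proteins, rose from 3.19, 2.34 and 2.20 CPM to 22.3, 21.1 and 18.6 CPM, a log2 fold change of 3.01 (SE 0.19, edgeR adjusted p = 2.94e-05). Adamts4, an aggrecanase, rose from 6.74, 8.90 and 7.60 CPM to 45.5, 54.0 and 38.4 CPM (5.93-fold). All 4 of these calls held in every alternative, and the inhibitor gene Timp1 fell 2.25-fold. In the complement system the central component C3 rose 3.76-fold (47.9, 49.5 and 41.6 CPM to 177, 181 and 165 CPM), while factor B, Cfb, fell 3.02-fold.

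C-type lectins and related receptors, which bind microbial and cell surface ligands, were lower more often than higher. Of 30 C-type lectins, paired receptors and TREM receptors tested, 18 were lower and 2 higher, with a median log2 fold change of -0.81. Under total-count scaling 14 and 3 were called and the median was -0.51, and 7 falls passed in every alternative. Pilra, an inhibitory receptor for sialylated ligands, fell from 14.7, 18.3 and 17.0 CPM to 1.28, 1.69 and 1.43 CPM, a log2 fold change of -3.50 (SE 0.26, edgeR adjusted p = 5.48e-05). Its activating partner Pilrb1 fell 10.7-fold, though the genes of this family lie side by side and reads may be shared among them. Clec4e, the receptor Mincle for mycobacterial glycolipids, had 1066, 1086 and 1084 CPM with LPS and 363, 373 and 376 CPM with calycosin plus LPS. The libraries of each group lay close together, and the difference was 2.91-fold (edgeR adjusted p = 3.11e-05). Clec4d, its partner, fell 3.18-fold, Siglec1 7.19-fold and Trem1, an amplifier of inflammation, from 3.78 ± 1.00 to 0.424 ± 0.141 CPM. Clec10a, a lectin of alternatively activated cells, rose from 0.310 ± 0.0748 to 1.63 ± 0.102 CPM.

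Toll-like receptors were not moved as a block. Tlr9, the sensor of bacterial DNA in endosomes, rose from 11.5, 10.9 and 6.86 CPM to 40.5, 35.4 and 44.5 CPM, a log2 fold change of 2.04 (SE 0.31, edgeR adjusted p = 0.00130). Tlr4 had 104, 108 and 20.3 CPM with LPS and 52.1, 48.9 and 50.4 CPM with calycosin plus LPS. LPS replicate 3 lay far below its group, the groups overlapped, and Tlr4 was not called (edgeR adjusted p = 0.581). Cd14, which hands LPS to TLR4, fell from 1248 ± 55.0 to 505 ± 70.8 CPM, a call lost in the 3 TPM fits, and Ly96 (MD-2) had 20.4 ± 2.58 and 8.79 ± 2.95 CPM (edgeR adjusted p = 0.0889). Of 14 Toll-like receptors and co-receptors 5 were lower and 1 higher, and under total-count scaling 1 and 1. Of 22 adaptors and kinases below TLR4, 6 were lower, with Myd88 and the kinase gene Lyn each 2.11-fold lower, and Ticam2 and Traf3 were higher. Under total-count scaling 4 were lower and 4 higher, and none of these calls passed in every alternative.

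Receptors for chemokines and cytokines were also lower in part. Cxcr3 fell from 42.1 ± 3.42 to 11.3 ± 2.71 CPM and Ccr1 from 4.93 ± 0.614 to 1.48 ± 0.145 CPM, both in every alternative. Of 8 chemoattractant receptors tested 5 were called lower and 1 higher, against 2 and 1 under total-count scaling. Of 27 cytokine receptors 12 were lower and 3 higher, but none of these calls passed in every alternative, and under total counts the split was 4 and 5. The TNF receptor gene Tnfrsf1b had 1467 ± 79.0 and 852 ± 128 CPM. The highest cytokine receptor fold was in Il6ra, which rose 2.79-fold. Adora2b, an adenosine receptor, fell 7.27-fold, from 21.8 ± 3.03 to 2.98 ± 1.10 CPM, and S1pr1, a receptor for sphingosine 1-phosphate, rose 3.97-fold, from 2.79 ± 0.209 to 11.1 ± 1.71 CPM. Of 11 scavenger receptors 3 were lower and 1 higher, and under total-count scaling 1 and 1. The scavenger receptor gene Msr1 fell 3.80-fold and the inhibitory Fc receptor gene Fcgr2b 2.77-fold. Among costimulatory molecules Cd86 fell from 243 ± 0.283 to 90.0 ± 10.8 CPM and Cd80 2.15-fold, whereas Cd83 rose 2.65-fold and Icosl 1.65-fold. Icam1, the adhesion ligand for leukocyte integrins, rose 1.97-fold (283, 285 and 319 CPM to 541, 695 and 508 CPM), a call lost in the TPM fits.

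Inside the cell, some of the inhibitors that close the response were lower. Socs3, which blocks signalling by the interleukin 6 family, had 190, 189 and 200 CPM with LPS and 28, 40.1 and 33.4 CPM with calycosin plus LPS, a log2 fold change of -2.51 (SE 0.19, edgeR adjusted p = 5.94e-05). Cish fell 3.62-fold, Tnip1 2.32-fold and the RNase gene Zc3h12a 2.63-fold. Socs1, which blocks interferon signalling, rose from 7.45 ± 0.902 to 15.0 ± 3.07 CPM (edgeR adjusted p = 0.00344). Of 24 negative feedback regulators 8 were lower and 3 higher, and under total-count scaling 6 and 4. Tnfaip3 (A20) had 214 ± 62.2 and 112 ± 42.5 CPM and did not pass (edgeR adjusted p = 0.0656).

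Of 20 NF-kappaB subunits and inhibitors 4 were lower and 1 higher, and under total-count scaling the split turned to 2 lower and 3 higher. The 15 not called are a share close to the 70.9% of all genes. Nfkbiz, a nuclear co-activator needed for secondary response genes such as Il6, fell from 1394 ± 128 to 639 ± 168 CPM, and Nfkb1 fell 2.02-fold. Nfkbie, an inhibitor that holds NF-kappaB in the cytoplasm, rose from 37.9, 38.9 and 41.5 CPM to 87.5, 108 and 80.5 CPM (2.33-fold, edgeR adjusted p = 0.000410). Rela, Relb, Nfkb2 and Nfkbia did not pass.

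Early-response transcription factors were called in both directions. Of 23 EGR, NR4A, IER and KLF genes 5 (21.7%) were lower and 2 (8.7%) higher. Of 23 AP-1 and related bZIP factors 4 (17.4%) were lower and 4 higher, against 12.9% and 16.1% of all genes tested. Under total-count scaling the first list had 4 lower and 4 higher and the second 2 lower and 6 higher. Ier2 fell 3.69-fold with close replicates (197 ± 1.41 and 53.5 ± 3.01 CPM), Egr2 3.70-fold and the nuclear receptor Nr4a2 6.18-fold, and these 3 falls passed in every alternative. Klf10, a repressor in the TGF-beta pathway, rose from 6.28, 6.72 and 4.90 CPM to 24.4, 27.0 and 21.7 CPM (edgeR adjusted p = 7.80e-05). Fosl2 fell 2.98-fold and Cebpb 1.91-fold, neither in every alternative, while the AP-1 repressor gene Jdp2 rose 2.18-fold and Gadd45b 2.22-fold. Fos, Junb, Atf3 and Egr1 did not pass. In the cAMP pathway, Pde4b, a phosphodiesterase that LPS induces, fell from 175, 172 and 138 CPM to 27.0, 35.0 and 61.2 CPM, and Pde4d rose 2.29-fold. The kinase gene Sik1 rose from 0.494 ± 0.349 to 3.43 ± 0.208 CPM.

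Interferon-stimulated genes were lower in part. Promoter windows of Slfn5 and Ifi205 are shown because each holds a pair of GAAANNGAA elements, the core of the interferon-stimulated response element, given in capitals on either strand.
Slfn5, chr11:82951852-82952151, plus strand: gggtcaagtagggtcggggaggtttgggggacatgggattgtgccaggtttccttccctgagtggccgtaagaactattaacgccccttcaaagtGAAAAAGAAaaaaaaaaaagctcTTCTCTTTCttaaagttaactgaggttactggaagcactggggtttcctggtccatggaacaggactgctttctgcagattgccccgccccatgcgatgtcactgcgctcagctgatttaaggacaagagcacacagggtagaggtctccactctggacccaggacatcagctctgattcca
Ifi205, chr1:174031706-174032005, minus strand: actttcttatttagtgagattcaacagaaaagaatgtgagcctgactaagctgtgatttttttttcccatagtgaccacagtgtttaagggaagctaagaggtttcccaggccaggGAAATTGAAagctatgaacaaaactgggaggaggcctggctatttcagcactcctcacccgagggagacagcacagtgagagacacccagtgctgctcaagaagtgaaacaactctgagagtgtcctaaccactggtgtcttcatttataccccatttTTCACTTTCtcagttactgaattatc
The elements begin at -155 and -132 in Slfn5 and at -134 and 25 in Ifi205. GAAANNGAA was found in 66.7% of the 30 antiviral interferon-stimulated genes with a window and in the same share of the 15 of them called lower. It was in 8.97% of all tested genes with a window, in 15.4% of those at least 2-fold lower and in 7.57% of those at least 2-fold higher, and in 8.56% of all windows.

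Slfn5, a Schlafen protein that represses interferon responses, had 111, 107 and 91.5 CPM with LPS and 18.4, 17.9 and 18.8 CPM with calycosin plus LPS, a log2 fold change of -2.49 (SE 0.19, edgeR adjusted p = 5.94e-05). Ifi205, an IFI200 protein, had 161, 164 and 185 CPM and then 42.0, 32.3 and 55.6 CPM (edgeR adjusted p = 0.000518). Slfn1 fell 2.84-fold and Slfn4 from 2240 ± 70.9 to 870 ± 59.9 CPM, and the STING gene Tmem173 fell 2.12-fold. Of 19 genes of the IFI200 and Schlafen families and DNA sensors, 9 were lower and none higher, 8 of them also under total-count scaling and 5 in every alternative. Both families lie in clusters of similar genes, so reads may be split among neighbours. Aim2 and Cgas did not pass.

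Fewer than 1 in 2 of the antiviral effectors passed the test. Of 40 tested, 18 were lower and none higher, with a median log2 fold change of -0.44, but under total-count scaling 7 were lower and 2 higher, the median was -0.14, and 1 fall, that of Phf11b, passed in every alternative. Phf11b had 169, 170 and 197 CPM and then 76.3, 63.8 and 83.0 CPM. Ifit2, which binds viral RNA, fell from 3099, 3409 and 3348 CPM to 1459, 1456 and 1429 CPM (2.27-fold, edgeR adjusted p = 0.000358). Rsad2, viperin, had 7380, 7734 and 7245 CPM and then 3447, 3849 and 3695 CPM, a call lost in the TPM fits. Isg15, Mx1 and Ifit3 did not pass, nor did Ifnb1, the interferon-beta gene, with 3.90 ± 1.04 and 5.47 ± 1.07 CPM. Among guanylate-binding proteins and immunity-related GTPases 8 of 18 were lower, and under total-count scaling 5 were lower and 3 higher. Of these, Tgtp2 fell in every alternative, from 56.8 ± 5.24 to 19.4 ± 1.73 CPM. In JAK-STAT signalling Stat3, Irf7 and Irf9 fell 1.87-fold, 1.81-fold and 1.79-fold, calls lost in the TPM fits, while Irf1 rose 1.74-fold and Stat5a 1.90-fold. Stat2 did not pass.

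Enzymes that make inflammatory mediators gave calls in both directions. Of 14 genes of prostanoid and leukotriene synthesis 3 were lower and 3 higher (21.4% each), against 12.9% and 16.1% of all genes tested. Of 18 of nitric oxide and arginine metabolism 6 (33.3%) were lower and 1 (5.56%) higher. Of 19 of the inflammasome and pyroptosis the counts were 5 (26.3%) and 1 (5.26%). Under total-count scaling these counts were 1 and 5, 3 and 2, and 3 and 3. Ptgs2 (ENSMUSG00000032487, chr1:150100031-150108227), the inducible cyclooxygenase of prostaglandin synthesis, had 3941, 3825 and 3303 CPM with LPS and 642, 624 and 645 CPM with calycosin plus LPS. The calycosin libraries lay close together, and the log2 fold change was -2.53 (SE 0.18, edgeR adjusted p = 5.48e-05). The noncoding Ptgs2os2, annotated nearby on chromosome 1, fell 3.22-fold. Ptgs1, the constitutive cyclooxygenase, rose 1.39-fold, but not in every alternative. Nos2, the inducible nitric oxide synthase, had 3443 ± 351 and 2278 ± 105 CPM (edgeR adjusted p = 0.0160), a call lost in 7 alternatives. Acod1, which makes itaconate, had 5325, 5399 and 5440 CPM and then 2463, 3191 and 2818 CPM, a 1.91-fold fall that was lost in the TPM fits. Odc1, the first enzyme of polyamine synthesis, fell 3.14-fold from 2759 ± 125 to 878 ± 79.2 CPM in every alternative. In the inflammasome Casp1, which processes interleukin 1 beta, fell 2.38-fold in every alternative, and Nlrp3 stood at 1277 ± 35.8 and 1403 ± 30.6 CPM and did not pass. Ch25h, which makes the antiviral sterol 25-hydroxycholesterol, went from 0.745 ± 0.217 CPM to 0.0313 ± 0.0542 CPM, below the floor. Upp1, a uridine phosphorylase, fell 10.4-fold.

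Among actin genes the largest change in CPM was a fall of Actb. Actb, cytoplasmic beta-actin and a common reference gene, had 5619, 5240 and 5774 CPM with LPS, 1989, 1634 and 2001 CPM with calycosin plus LPS and 911 ± 289 CPM in vehicle cells. The log2 fold change was -1.56 (SE 0.22, edgeR adjusted p = 0.000984) and the call held in every alternative. Actg1 fell 2.00-fold and Cfl1, cofilin, 1.90-fold, both lost in the TPM fits, and Acta2, smooth muscle actin, went from 1.54 ± 0.492 CPM to 0.0313 ± 0.0542 CPM, below the floor. Of 38 genes of the actin cytoskeleton and migration 18 were lower and 4 higher, with a median log2 fold change of -0.45. Under total-count scaling 7 were lower and 4 higher, and 2 falls passed in every alternative. Ezr, which links actin to the membrane, rose 1.68-fold.

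Calls in several groups of housekeeping genes rested on the scaling. Of 26 proteasome genes 12 were lower, of 33 aminoacyl-tRNA synthetases and translation factors 12, of 28 genes of glycolysis and the pentose phosphate path 10, and of 28 genes of the amino acid stress response 11. Under total-count scaling these counts were 1, 2, 0 and 2, and no fall in these 4 lists passed in every alternative. Examples are the immunoproteasome subunit Psmb8 (174 ± 12.6 and 90.9 ± 11.3 CPM), the arginyl-tRNA synthetase Rars (934 ± 129 and 513 ± 21.4 CPM), the glucose transporter Slc2a1 (535 ± 17.6 and 271 ± 31.5 CPM) and the asparagine synthetase Asns (537 ± 36.0 and 355 ± 31.7 CPM). Few genes were called in the tricarboxylic acid cycle with itaconate synthesis (2 of 23), the nuclear-encoded respiratory chain (1 of 33) and the cytosolic ribosome (1 of 32). None of 13 mitochondrially encoded mRNAs was called by edgeR, by DESeq2 or by limma on TPM. None had an unadjusted edgeR p below 0.05, and the lowest was 0.181, for mt-Nd3. For the last group the median log2 fold change was -0.26, and 0.15 without calycosin plus LPS replicate 2.

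**Figure D3:**
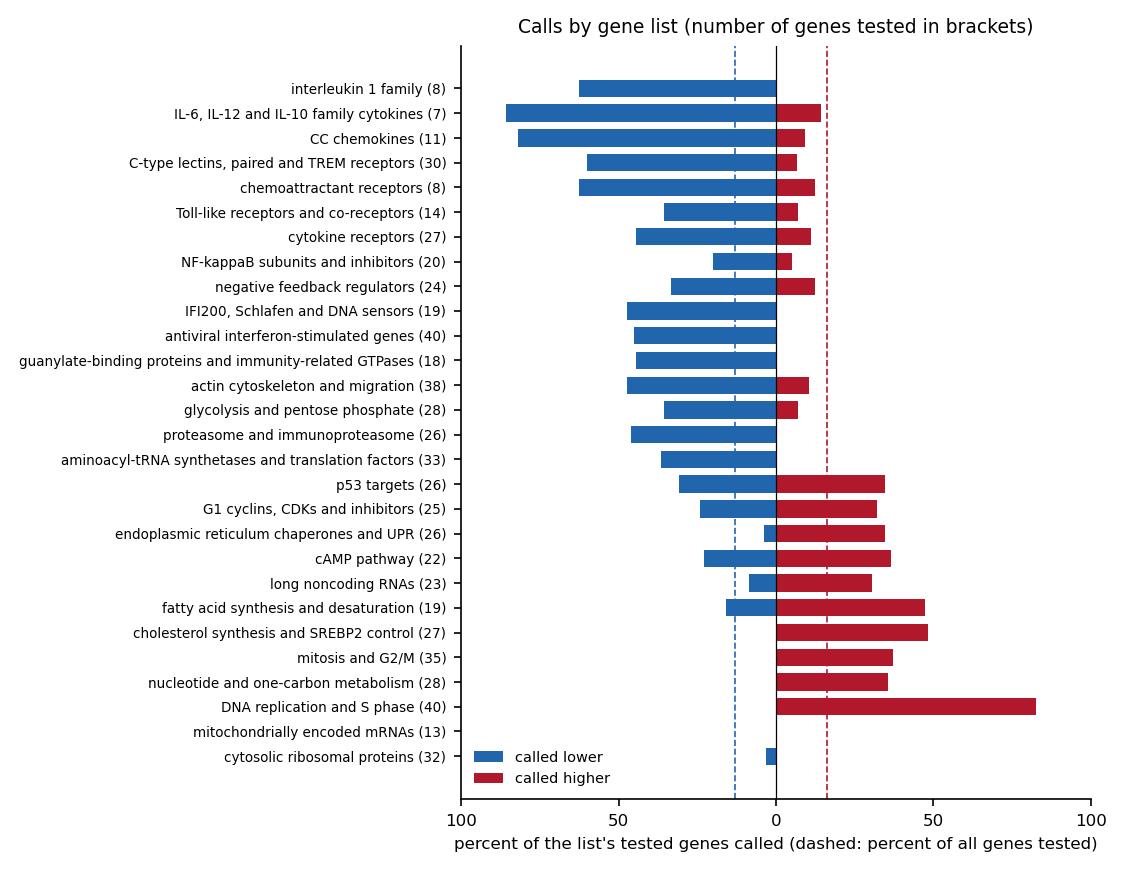
Percent of tested genes in each of 28 lists that were called lower (blue, to the left) and higher (red, to the right), with the number tested in brackets and dashed lines at the shares of all genes tested, 12.9% lower and 16.1% higher. The lists shown were picked from 81. Among them the interleukin, CC chemokine and receptor lists extend to the left, and DNA replication, mitosis and lipid synthesis lists extend to the right. Not shown are lists with equal shares each way: TNF superfamily ligands (9.09%), CXC and CX3C chemokines (14.3%) and colony stimulating factors (40.0%).

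Some genes of fatty acid synthesis were higher with calycosin plus LPS. Scd2 (chr19:44293674-44306864), a stearoyl-CoA desaturase that makes monounsaturated fatty acids, had 25.0, 25.1 and 20.1 CPM with LPS and 142, 142 and 125 CPM with calycosin plus LPS. The log2 fold change of 2.54 (SE 0.13) had an edgeR adjusted p of 1.92e-05, and vehicle cells had 530 ± 23.1 CPM. Its homologue Scd1 rose from 16.6, 16.5 and 15.2 CPM to 60.7, 51.7 and 57.6 CPM, Fads2 2.16-fold and Fasn, fatty acid synthase, from 53.1 ± 6.17 to 134 ± 20.9 CPM. Acsl4, which loads arachidonate onto coenzyme A, fell 2.16-fold, but not in every alternative. Of 19 genes of fatty acid synthesis and desaturation 9 were higher and 3 lower, and under total-count scaling 10 and 1. The master regulator gene Srebf1 had 55.2 and 58.8 CPM on average and did not pass.

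Genes of the cholesterol pathway were higher in part. Dhcr7, which reduces the last intermediate to cholesterol, went from 7.19, 3.65 and 6.44 CPM to 27.5, 22 and 28.8 CPM (edgeR adjusted p = 0.000501). Idi1 rose 2.42-fold and Stard4, a sterol carrier, 3.17-fold. The synthase gene Hmgcs1 did not pass. Of 27 genes of cholesterol synthesis and its control 13 were higher and none lower, 18 and none under total-count scaling, and 3 rises passed in every alternative. CCAAT, bound by NF-Y, was in the windows of 90.0% of the 20 genes of this list with a window, in 75.0% of the 8 of them called higher and in 43.0% of all tested genes with a window. TCACNCCAC, the sterol regulatory element, was in 1 of the 20 and in none of the 8, against 1.41% of all tested genes with a window and 1.24% of all windows. Cpt1a, which admits fatty acids to mitochondria for oxidation, rose from 9.65, 8.69 and 7.69 CPM to 32.5, 32.5 and 29.7 CPM. Of 21 genes of fatty acid oxidation 3 (14.3%) were higher, against 16.1% of all genes tested, and none lower. Dgat2, for triglyceride storage, rose 4.69-fold. Of 19 genes of that storage 7 were higher and 2 lower, with a median log2 fold change of -0.06. The cholesterol exporters Abca1 and Abcg1 rose 1.87-fold and 1.88-fold, neither in every alternative. Of 11 genes of cholesterol efflux and its control 3 were higher and 2 lower.

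Most of the DNA replication genes tested were higher. The promoter windows of 3 genes are given because they carry elements of the cell cycle. In Gins3 and Pole2, subunits of the replicative helicase and of DNA polymerase epsilon, capitals mark TTTCCCGC and TTTGGCGC, core E2F sites. In Top2a, topoisomerase II alpha, capitals mark TTTGAA, the cell cycle homology region, and CCAAT, all on either strand.
Gins3, chr8:95633309-95633608, plus strand: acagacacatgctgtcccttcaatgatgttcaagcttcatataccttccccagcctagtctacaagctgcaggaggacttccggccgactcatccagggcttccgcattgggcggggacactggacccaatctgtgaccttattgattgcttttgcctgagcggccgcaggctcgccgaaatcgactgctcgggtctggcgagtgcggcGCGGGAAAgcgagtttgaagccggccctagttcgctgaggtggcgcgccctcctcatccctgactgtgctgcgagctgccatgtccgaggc
Pole2, chr12:69228141-69228440, minus strand: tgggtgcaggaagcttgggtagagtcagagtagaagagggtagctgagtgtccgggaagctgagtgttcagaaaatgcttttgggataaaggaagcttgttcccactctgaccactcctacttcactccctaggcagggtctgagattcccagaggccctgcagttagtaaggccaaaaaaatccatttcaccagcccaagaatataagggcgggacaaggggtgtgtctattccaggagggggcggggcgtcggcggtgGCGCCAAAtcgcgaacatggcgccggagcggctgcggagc
Top2a, chr11:99024140-99024439, minus strand: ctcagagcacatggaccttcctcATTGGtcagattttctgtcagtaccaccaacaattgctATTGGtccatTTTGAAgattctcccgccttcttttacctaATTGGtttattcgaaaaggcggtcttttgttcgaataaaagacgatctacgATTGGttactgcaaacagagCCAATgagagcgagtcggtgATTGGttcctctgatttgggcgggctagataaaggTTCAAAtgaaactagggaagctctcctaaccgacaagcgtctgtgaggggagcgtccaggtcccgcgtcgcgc
The E2F site begins at -41 in Gins3 and at 11 in Pole2. Top2a holds 6 CCAAT boxes between -227 and -58 and TTTGAA at -179 and -23. Either E2F core was in 33.3% of the 33 replication genes with a window and in the same share of the 27 of them called higher, in 3.46% of all tested genes with a window, in 4.62% of those at least 2-fold higher and in 1.56% of all windows. TTTGAA was in 65.5% of the 29 mitosis genes with a window and in 70.0% of the 10 of them called higher, in 14.8% of all tested genes with a window and in 17.9% of all windows.

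Of 40 genes of DNA replication and S phase 33 were higher and none lower, with a median log2 fold change of 0.81. Under total-count scaling 35 were higher, and 8 rises passed in every alternative. Gins3 rose from 3.55, 5.45 and 4.11 CPM to 16.1, 16.4 and 13.9 CPM (edgeR adjusted p = 0.000382), Pole2 from 3.28, 1.97 and 3.86 CPM to 9.68, 8.07 and 7.77 CPM and the helicase subunit Mcm4 from 22.4, 23.2 and 20.8 CPM to 42.7, 42.0 and 47.8 CPM. Vehicle cells had 20.4 ± 4.22, 12.2 ± 1.07 and 85.1 ± 12.2 CPM of these 3. Ung, which removes uracil from DNA, had the largest fitted rise, from 0.171 ± 0.0434 to 1.39 ± 0.566 CPM. Gins2 had 16.5, 25.7 and 4.50 CPM with calycosin plus LPS and 3.73, 1.93 and 4.45 CPM with LPS. Calycosin plus LPS replicate 3 lay next to the LPS libraries for Gins2, whose call was lost without LPS replicate 2 and in the TPM fits. Pcna, Cdt1 and Cdc45 did not pass.

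Cell cycle regulators of G1 moved in both directions, with 8 of 25 higher and 6 lower, and 11 and 1 under total-count scaling. Ccne2 and Ccne1, the E cyclins of S phase entry, rose from 2.50, 2.62 and 1.99 CPM to 13.8, 8.80 and 10.8 CPM and from 9.58 ± 0.838 to 25.8 ± 1.27 CPM, and the factors E2f1, E2f2 and E2f7 rose 1.95-fold, 2.52-fold and 2.64-fold. Ccnd1 and Ccnd2, the D cyclins of G1, fell 1.61-fold and 1.75-fold, calls lost in the TPM fits and, for Ccnd1, under total counts. The nucleotide reductase gene Rrm2 rose from 16.7, 15.3 and 14.8 CPM to 33.6, 35.5 and 34.9 CPM, and of 28 genes of nucleotide and one-carbon metabolism 10 were higher and none lower. Of 35 mitosis genes 13 were higher and none lower, 3 of them in every alternative. Top2a rose from 77.4, 93.0 and 93.1 CPM to 150, 145 and 161 CPM, while the mitotic genes Plk1, Ccnb1 and Cdc20 did not pass. Cdca7, a MYC and E2F target, rose 4.70-fold with close replicates.

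**Figure D4:**
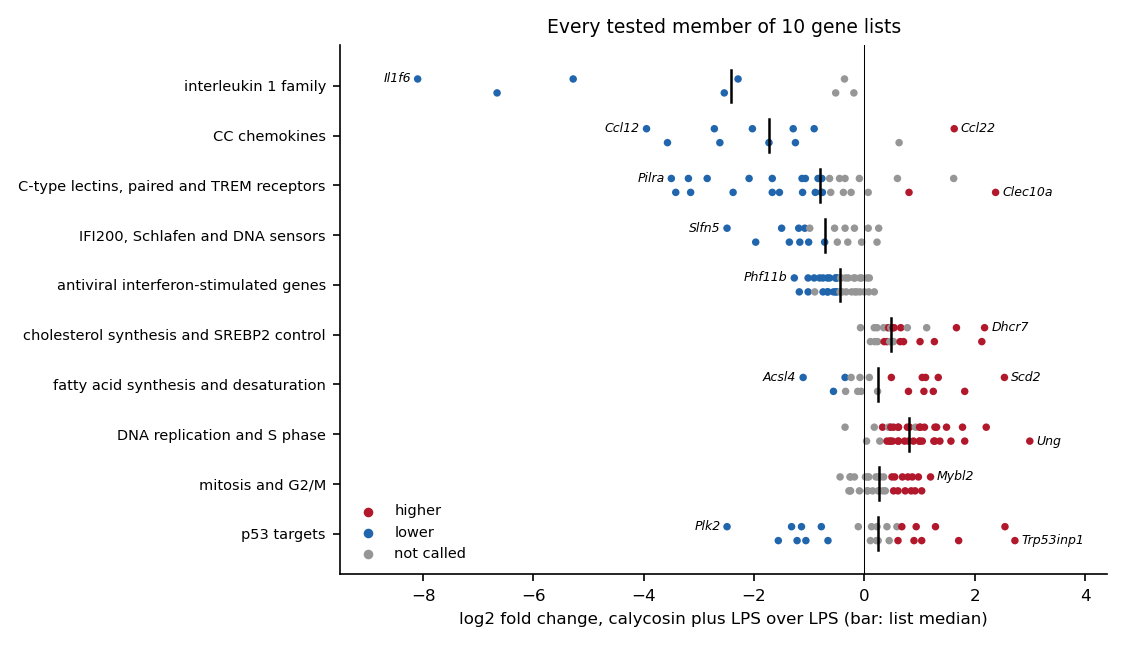
Log2 fold change (LPS with calycosin over LPS without) for each tested member of 10 lists, coloured by call, with a bar at the list median and the extreme called members named. Interleukin 1 and CC chemokine genes reach below -3, and the replication list has 33 of its 40 members called higher. The fitted value of Il1f6 is not a measured size, since its calycosin libraries had no counts.

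Targets of the tumour suppressor p53 split into both directions, with 9 of 26 higher and 8 lower. Trp53inp1, which promotes cell death and autophagy, rose from 1.41, 1.19 and 0.997 CPM to 8.99, 7.51 and 7.45 CPM (edgeR adjusted p = 3.27e-05), and Sesn1 rose 3.28-fold. Plk2, a kinase of the stress response, fell from 511, 495 and 556 CPM to 83.3, 95.7 and 99 CPM (edgeR adjusted p = 2.33e-05), and Mdm2, the ligase that degrades p53, fell from 425, 435 and 426 CPM to 180, 164 and 170 CPM. Trp53 did not pass. The noncoding Trp53cor1 (lincRNA-p21) rose from 3.82, 4.76 and 3.28 CPM to 21.3, 15.9 and 15.5 CPM. Under total-count scaling the p53 list had 14 higher and 5 lower.

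Among 23 long noncoding RNAs listed by name, 7 were higher, 6 of these in every alternative, and 2 lower, and under total-count scaling 7 and 3. Malat1, an abundant nuclear RNA, had 319, 320 and 349 CPM with LPS, 756, 871 and 799 CPM with calycosin plus LPS and 735 ± 44.7 CPM in vehicle cells (edgeR adjusted p = 0.000125). Neat1, its neighbour on chromosome 19, did not pass. The small nucleolar RNA hosts Gas5, Snhg5 and Snhg12 rose 2.30-fold, 2.61-fold and 2.55-fold. In protein folding, 9 of 26 chaperones and unfolded-protein-response genes were higher and 1 lower, led by Sdf2l1 and Manf (2.30-fold and 1.79-fold), and none of these rises passed in every alternative. Among clock genes 5 of 18 were higher and 1 lower, with the repressor Nr1d2 rising 2.73-fold.

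Mif, the factor in the series' title, did not pass the test. It had 323, 310 and 343 CPM with LPS and 202, 297 and 222 CPM with calycosin plus LPS, a log2 fold change of -0.44 (SE 0.22, edgeR adjusted p = 0.167). The groups did not overlap, as for 49.7% of all genes tested, and calycosin plus LPS replicate 2 lay close to the LPS libraries. Its receptor genes Cd74 and Cd44 had 1018 ± 36.3 and 873 ± 105 CPM and 1175 ± 114 and 929 ± 51.8 CPM, and neither passed. The co-receptor Cxcr4 was called higher at 0.430 ± 0.219 CPM against 0.0547 ± 0.0947 CPM, below the floor, a call lost in 7 alternatives. Vehicle cells had more Cxcr4 than the calycosin plus LPS libraries, and with the 6 libraries only Cxcr4 was not tested. Of 5 genes of MIF and its receptors it was the only one called with all 9 libraries and no covariate. The log2 fold change of Mif passed in 3 alternatives, at edgeR adjusted p = 0.0441 with the 6 libraries only, 0.0345 without vehicle replicate 3 and 0.00104 with the mitochondrial share as a term, and that of Cd44 passed in the last 2 of these.

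Genes that isoflavones are known to touch were called about as often as all genes or rested on few members. Esr1, estrogen receptor alpha, had 0.377 ± 0.170 and 0.517 ± 0.0687 CPM and did not pass, and Esr2 had no counts in any library. The aryl hydrocarbon receptor gene Ahr had 2 counts with LPS and none with calycosin plus LPS or in vehicle cells. Its targets Cyp1a1, Cyp1a2 and Cyp1b1 had no counts in any library, and none of these genes could be tested. Ahrr, another target of the aryl hydrocarbon receptor, had no counts with LPS and 0.188, 0.141 and 0.194 CPM with calycosin plus LPS. With the LPS level set at the floor of 3 counts per library, its rise was at least 1.36-fold, a call lost in 4 alternatives. Ahrr passed the filter on low counts only through the vehicle libraries, each of which lay above the calycosin plus LPS libraries. Hmox1, heme oxygenase 1 of the NRF2 response, rose from 110, 108 and 122 CPM to 173, 208 and 150 CPM (1.56-fold, edgeR adjusted p = 0.00758), a call lost in the TPM fits, and Nqo1 did not pass. Of 25 NRF2 targets 3 were higher and 4 lower, and none of the 7 calls passed in every alternative. The aryl hydrocarbon receptor list had 2 of 6 higher, none in every alternative.

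On the CPM scale the largest rises of a nuclear gene were in Malat1, Rassf4 (668 ± 33.5 to 974 ± 5.52 CPM) and Icam1, and the largest falls in Ccl3, Fth1, Rsad2 and Actb. Fth1, the heavy chain of the iron store ferritin, had 11870 ± 629 and 7280 ± 840 CPM (edgeR adjusted p = 0.0220), a call lost in 8 alternatives. Another 3 genes were at or below 3 counts in each library of 1 group with at least 50 counts in each library of the other. E130102H24Rik, a long noncoding RNA on chromosome 4, had 3.92, 4.31 and 4.20 CPM with LPS and 0, 0.0235 and 0 CPM with calycosin plus LPS. Elfn2, a neuronal transmembrane protein, had 0, 0.0820 and 0 CPM and then 2.10, 1.62 and 1.62 CPM. Pcdhgb4, a protocadherin of a cluster with shared exons, had no counts with LPS and 19.0, 7.37 and 5.96 CPM with calycosin plus LPS, and its call was lost in 7 alternatives, including each fit without 1 of the LPS libraries. Among markers of other cell types, the endothelial Cdh5 fell from 4.76 ± 0.874 to 0.671 ± 0.0922 CPM and the fibroblast Pdgfrb from 1.71 ± 0.578 to 0.153 ± 0.0362 CPM, and the dendritic Zbtb46 rose from 0.113 ± 0.0446 CPM, below the floor, to 0.867 ± 0.181 CPM.

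**Figure D5:**
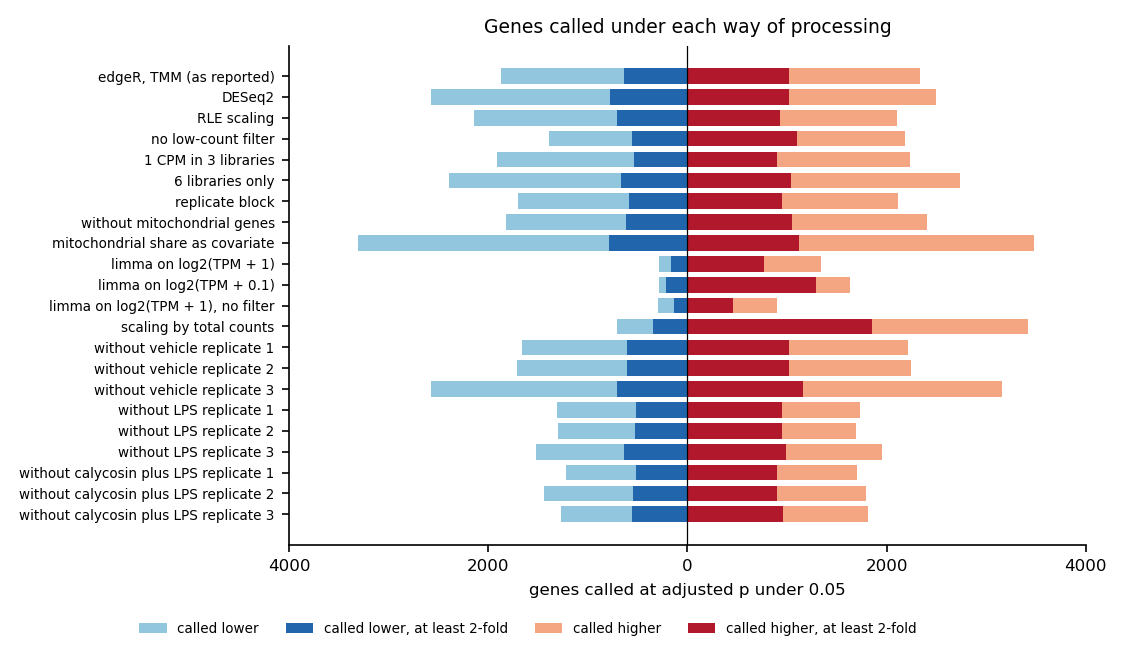
Genes called lower (to the left) and higher (to the right) under each way of processing, with darker bars for those at least 2-fold changed. With TMM scaling in edgeR the bars reach 1871 and 2333 genes, whereas the limma fits on TPM and the scaling by total counts shorten the left side to between 286 and 710 genes.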

How the data were processed

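RNA-seq libraries of RAW 264.7 cells were compared, 3 per group. The authors deposited whole-number read counts per gene and TPM values per gene, per the file headers. The submitters' processing notes name Trimmomatic 0.36, HISAT2 2.0, StringTie 1.3.3b and the build mm10, and how reads were counted, with or without strand, is not given in the sources used here.

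Counts were tested with edgeR 4.0.16 (R 4.3.3) by its quasi-likelihood test after filtering on low counts and TMM scaling, with all 9 libraries in the fit and Benjamini-Hochberg adjustment over all genes tested. Alternatives used DESeq2 1.42.0, limma 3.58.1 on log2 of the deposited TPM plus a pseudocount of 1 or 0.1, other filters and scalings, a replicate block and each library left out. The scripts were tested on simulated data. An exact permutation test of 3 against 3 libraries cannot go below p = 0.1. P-values measure the spread between these libraries, and floors cover counting error only.

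The gene lists, the contrast and the rules were chosen with earlier results of these data known. The rule for named genes took the largest fold changes among genes of at least 10 CPM without overlap, the largest changes in CPM, genes seen in 1 group only and the leading called members of each list. Members named outside it, mostly genes that did not pass, were chosen after their values were seen. Promoter windows are from RefSeq (GRCm38.p6), and 9897 of the tested genes (68.5%) matched one by symbol. Numbers of replicates did not pair the libraries.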

Additional observations from a re-analysis of the deposited data

How the results depend on the processing

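No gene called by edgeR with TMM scaling was called in the other direction in any of the 21 alternatives. Of these, scaling by total counts was chosen after seeing the data. The 2333 higher genes became 1345 with limma on log2(TPM + 1) and 897 with it unfiltered. The 1871 lower genes became 286, 288 and 300 in the limma fits with a pseudocount of 1, of 0.1 and without a filter, 710 with total-count scaling and 3307 when the mitochondrial share entered as a covariate. The 1020 genes at least 2-fold higher became 462 in the unfiltered limma fit and 1849 with total counts. The 639 at least 2-fold lower became 167, 212 and 137 in the 3 limma fits and 344 with total counts. The median log2 fold change of all genes, 0.02, became 0.30, 0.34 and 0.04 in these limma fits and 0.33 with total counts. Without 1 library at a time the counts ranged from 1697 to 3164 higher, 1224 to 2576 lower, 896 to 1161 at least 2-fold higher and 516 to 707 at least 2-fold lower. The highest of each of these counts came without vehicle replicate 3. The lowest number of falls, 1224, came without calycosin plus LPS replicate 1, and 1268 came without calycosin plus LPS replicate 3. With the replicate block 2113 genes were higher and 1701 lower, and same-numbered libraries had deviations correlated at -0.0406, -0.0544 and -0.0911, so the numbers were not taken as pairs. Genes near 3 counts have folds that depth does not fix.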
